A study of Mus musculus with 2 samples.

Results

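Keratins are the intermediate filament proteins of epithelial cells. All genes whose symbol is Krt followed by a number and at most 1 letter were taken, which gave 53 members among the 31053 genes measured: 28 acidic type I genes and 25 basic type II genes. On the mouse assembly GRCm38, 27 members lie on chromosome 11 and 26 on chromosome 15, the latter being the type II genes and Krt18, a type I gene beside Krt8. The rule used no measured value. The cells came from the mouse cervix, dissected below the transition zone and freed of vaginal tissue, of C57BL6/129 females whose ovaries were removed at 7 to 8 weeks of age and who recovered for 2 weeks. The control mice were left without treatment over 15 days. The progesterone mice were given estradiol (E2) under the skin in corn oil, 100 µg per day for 2 days, so that the progesterone receptor would be made, and then a 25 mg pellet with release over 21 days, an estimated 1 mg per day. Each group was 9 mice pooled into 1 library. Effects of E2, of the injections and of the pellet cannot be told apart from those of progesterone, and no difference between them has a replicate check: no test between groups was possible, and every interval below is a 95% interval for counting error only.

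A keratin filament is built from pairs of a type I and a type II chain, and epithelia are known by the pairs they make. Krt5 with Krt14 or Krt15 marks the basal layer of stratified epithelium, and Krt8 with Krt18, joined by Krt7 and Krt19, marks simple and glandular epithelium. Krt4 with Krt13 is typical of the upper layers of wet squamous epithelium and Krt1 with Krt10 of cornifying layers, while Krt6a, Krt6b, Krt16 and Krt17 appear in wounded, hyperproliferative or otherwise stressed epithelium. In the cervix a stratified squamous epithelium meets a luminal, mucus-producing one.

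After filtering, 4579 control cells (median 3733 unique transcript counts, or UMIs, per cell) and 8541 progesterone cells (median 4151) were analysed, and 12 of their barcodes occurred in both libraries. Levels are UMIs per 1000000 UMIs of a cell group (CPM); a UMI counts 1 molecule by its 3′ end, so genes can be set side by side without scaling by length. Clusters were made without any keratin gene and named by markers that include no keratin, so the genes described here did not set the layers. Basal-like cells numbered 1031 in the control and 2943 in the progesterone library, suprabasal-like cells 452 and 1078, and luminal-like cells 225 and 1987. Clusters that stayed unnamed held 859 control and 894 progesterone cells, which are in no layer. Epithelial clusters below are those named squamous or luminal. The libraries filled the 3 layers with different clusters. Cluster 3 held 503 of the control basal-like cells and 18 progesterone cells, and cluster 2 held 340 of the control suprabasal-like cells and 12 progesterone cells. The progesterone luminal-like cells lay mostly in clusters 15 (1001 cells, 4 in the control) and 21 (840 cells, 1 in the control). Values are therefore also given within the 5 squamous and luminal clusters that hold at least 50 cells of each library, called shared below: clusters 1 and 6 (basal-like), 0 (suprabasal-like), 8 (dividing squamous cells of unresolved layer) and 12 (luminal-like). Fibroblast-, neutrophil-, macrophage- and blood endothelium-like cells, which should make no keratin, serve as a guide to the free keratin RNA counted. They may overstate it where they carry epithelial RNA beyond free RNA, which was not tested. Progesterone macrophage-like cells held the basal squamous markers Trp63 and Col17a1 at 98.0 and 191 CPM. The other non-epithelial classes of that library had at most 40.7 and 69.6 CPM. Together the 4 classes carried Krt14 at 1627 CPM in the control and 2512 CPM in the progesterone library. They ranged over 748 to 5807 CPM and 229.9 to 3728 CPM, the highest being blood endothelium-like cells in the control and macrophage-like cells with progesterone.

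Of the 53 members, 44 had at least 1 UMI and 9 had none. The 20 members with at least 500 UMIs (11 type I, 9 type II) held 99.9% of the 1245924 keratin UMIs, and Krt14 alone held 43.32%. Keratins made up 3.64% of all UMIs in the control and 1.35% in the progesterone library. In the control the order was Krt14 (18053 CPM), Krt5 (4377 CPM), Krt16 (3004 CPM), Krt6a (2814 CPM) and Krt15 (1895 CPM). In the progesterone library it was Krt14 (4633 CPM), Krt5 (2608 CPM), Krt15 (2085 CPM), Krt13 (1109.8 CPM) and Krt18 (1041 CPM). Krt16, a type I chain of stressed epithelium, thus held the third place in the control and stood at 17.2 CPM in the progesterone library, while Krt18, of simple epithelium, stood at 278 CPM in the control.

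**Figure D1:**
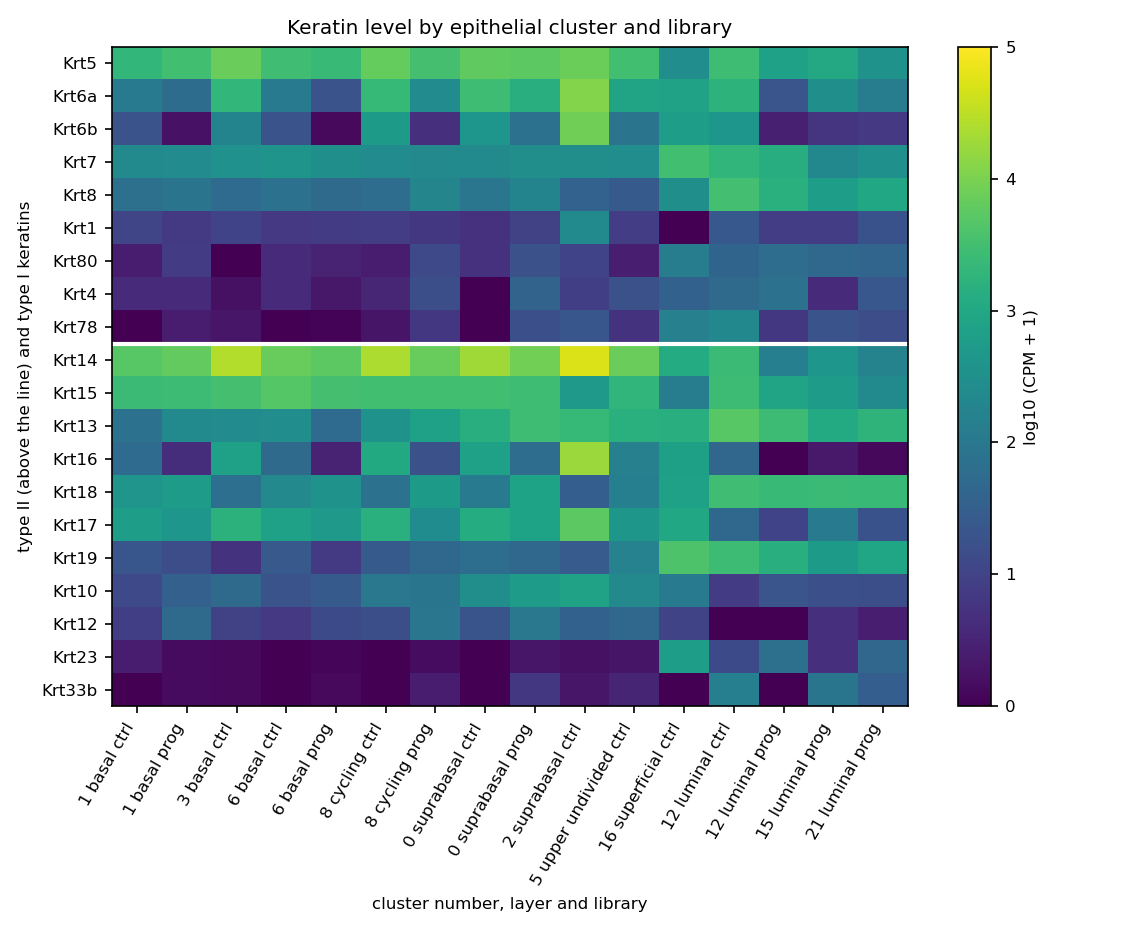
Level of the 20 keratins with at least 500 UMIs (rows, type II above the white line and type I below) in each epithelial cluster and library with at least 50 cells (columns, ctrl for control and prog for progesterone), as log10 (CPM + 1). Krt16 and Krt6b are highest in control cluster 2 (17828 and 8315 CPM), and Krt8 and Krt18 in control cluster 12 (3140.3 and 2935 CPM).

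Because the results turn on basal Krt5 and on the simple-epithelial pair, the stretches around the start sites of Krt5, Krt8 and Krt18 are shown, from 250 bases before to 50 bases after the RefSeq start on GRCm38.p6, 5′ to 3′ on the strand of the gene. Capitals mark matches to any of 5 motifs searched on both strands: TATAAA, known from core promoters, GGGCGG, known for Sp factors, TGANTCA for AP-1, GCCNNNGGC for AP-2 and AGAACA for steroid receptors. The Krt5 window is chr15:101712856-101713155 (minus strand), that of Krt8 chr15:102004293-102004592 (minus strand) and that of Krt18 chr15:102027966-102028265 (plus strand).
Krt5: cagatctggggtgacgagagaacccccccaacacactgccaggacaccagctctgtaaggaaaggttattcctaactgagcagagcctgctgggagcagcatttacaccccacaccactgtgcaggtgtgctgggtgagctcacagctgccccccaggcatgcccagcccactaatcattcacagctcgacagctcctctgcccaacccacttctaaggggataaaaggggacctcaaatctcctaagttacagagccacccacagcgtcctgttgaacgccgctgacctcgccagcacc
Krt8: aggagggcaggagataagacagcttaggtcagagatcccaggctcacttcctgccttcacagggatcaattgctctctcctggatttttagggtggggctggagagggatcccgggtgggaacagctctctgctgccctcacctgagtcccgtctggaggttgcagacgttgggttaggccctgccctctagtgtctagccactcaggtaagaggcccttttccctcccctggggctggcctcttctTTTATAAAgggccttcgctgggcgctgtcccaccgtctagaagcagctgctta
Krt18: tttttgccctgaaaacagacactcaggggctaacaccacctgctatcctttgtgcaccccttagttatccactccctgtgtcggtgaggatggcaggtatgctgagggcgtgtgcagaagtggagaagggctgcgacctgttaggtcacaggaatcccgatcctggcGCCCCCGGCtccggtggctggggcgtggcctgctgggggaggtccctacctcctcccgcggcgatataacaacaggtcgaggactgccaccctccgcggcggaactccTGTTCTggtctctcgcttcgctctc
Krt8 holds TATAAA on both strands in overlapping letters (first bases 248 and 250 of the 300), next to the RefSeq start; the GENCODE gene begins farther upstream, at base 102004482 of the chromosome. Krt18 holds a GCCNNNGGC match that begins at base 168 and an AGAACA match on the other strand that begins at base 276. None of the 5 motifs was found in this window of Krt5. Among 32544 promoter windows of that length, TATAAA occurred in 13.6%, GGGCGG in 35.9%, TGANTCA in 7.79%, GCCNNNGGC in 16.7% and AGAACA in 18.9%. The table held 37 windows for 36 of the 53 members, of which 19 held TATAAA, 2 GGGCGG, 2 TGANTCA, 7 GCCNNNGGC and 8 AGAACA. A match is a string of letters and not a bound site.

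In the basal-like layer Krt14, Krt5 and Krt15 led in both libraries, and of the 3 Krt15 differed least over the whole layer, though not within cluster 6. Krt14 was 20983 CPM in the control and 5938 CPM in the progesterone library, 3.53-fold lower (3.50 to 3.57). Its type II partner Krt5 was 5885 and 2617 CPM, 2.25-fold lower (2.21 to 2.29). Krt15, the alternative basal type I chain, was 3353 and 3070.2 CPM, a ratio of progesterone over control of 0.916 (0.898 to 0.934). The lower Krt14 and Krt5 rested on cluster 3, nearly all of it control cells, where Krt14 was 26357 CPM and Krt5 7139 CPM. Within cluster 1 Krt14 was 5069.9 and 6371 CPM, and Krt5 2003 and 3034 CPM. Within cluster 6 Krt14 was 6756 and 5576 CPM, and Krt5 2902 and 2333 CPM. Krt15 was 2566 and 2664 CPM in cluster 1. In cluster 6 it was 4899.5 and 3317 CPM, a ratio of 0.677 (0.644 to 0.712), the furthest from 1 of the 3 genes there. In the shared basal-like clusters none of the 3 was past 2-fold in either direction. The share of all keratins in the UMIs was 1.13% in control and 1.38% in progesterone cells of cluster 1, and 1.65% and 1.26% in cluster 6, against 3.47% and 1.32% over the layer. The control cells of cluster 1 were shallow, with a median of 1332.5 UMIs against 4143. Their Krt14 lay below the highest non-epithelial class of that library, 45 blood endothelium-like cells at 5807 CPM. It lay above the other classes, of which neutrophil-like cells were highest at 2163 CPM. Control cells were also shallower in clusters 6 (2501.5 against 4475), 0 (3798 against 6416) and 12 (2673 against 5236), but not in cluster 8 (7305 against 5992). Cluster 3 stood apart by its dividing-cell marker score of 1.97 (log2 scale, relative to the other clusters), against −0.02 in cluster 1 and −0.04 in cluster 6. It also stood apart by its suprabasal score of 1.29, against −0.37 and −0.98, beside a basal score of 1.95. The part of cell division or of suprabasal cells in its keratin level was not tested.

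The stress keratins were also lower with progesterone in the basal-like layer. Krt16 was 546 and 2.88 CPM over all basal-like cells, 56.0 and 3.48 CPM in cluster 1, 16.1-fold lower, and 52.9 and 2.07 CPM in cluster 6, 25.6-fold lower (12.4 to 52.9). Krt6a, a type II partner of Krt16, was 1537 and 34.0 CPM over the layer, 108 and 58.3 CPM in cluster 1 and 120.4 and 17.6 CPM in cluster 6. In control clusters 1 and 6 these levels were no higher than in the non-epithelial cells of the same library, 157 CPM for Krt16 and 254 CPM for Krt6a, so that a level of the basal-like cells themselves could not be told apart from free RNA there. In control cluster 3 both stood above it, at 718 and 2037 CPM. Krt17, a type I chain of stressed and appendage epithelium, was 1377 and 470.1 CPM over the layer, 597 and 419.8 CPM in cluster 1 and 728 and 502 CPM in cluster 6.

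Among the dividing squamous cells of cluster 8, which both libraries filled (287 control and 343 progesterone cells), control levels of the stress keratins lay above the highest non-epithelial class. Krt16 was 1109 and 16.1 CPM, 69.0-fold lower (49.4 to 99.3). Krt6b, the other inducible Krt6 gene, was 538 and 3.68 CPM, 146-fold lower (74.1 to 340.0), and Krt6a was 2254 and 255 CPM, 8.84-fold lower (8.09 to 9.67). Krt17 was 1484 and 267 CPM, 5.55-fold lower (5.08 to 6.07). The basal chain Krt14 was 24700 and 6731 CPM, 3.67-fold lower, and Krt5 6655 and 3387 CPM, 1.97-fold lower (1.91 to 2.02). Krt15 was 3007 and 3015 CPM, a ratio of 1.00 (0.968 to 1.04). In dividing cells Krt14 and the 4 stress keratins were thus more than 2-fold lower with progesterone, Krt5 just under 2-fold, and Krt15 level.

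Suprabasal-like cells had the highest keratin content of the 3 layers, 9.89% of UMIs in the control and 2.43% in the progesterone library. Krt14 was 49522 and 8659 CPM there and Krt16 15384 and 61.6 CPM. Krt6a was 10340 and 1453 CPM, Krt6b 7186 and 85.1 CPM and Krt17 4784 and 795 CPM. The high control values came from cluster 2, whose 340 control cells carried Krt14 at 54622 CPM, Krt16 at 17828 CPM and Krt6a at 11607 CPM, with Fabp5 and Mt4 among its leading genes. Within the shared cluster 0 the differences were smaller. Krt16 was 738 and 59.2 CPM, 12.5-fold lower (10.8 to 14.4). Krt6b was 416 and 74.7 CPM, 5.56-fold lower (4.71 to 6.56), and Krt14 18951 and 8649 CPM, 2.19-fold lower (2.14 to 2.24). Krt6a (2746 and 1408 CPM) was 1.95-fold lower and Krt17 (1233 and 792 CPM) 1.56-fold lower, both short of 2-fold. Krt5 differed little, at 5901 and 5453 CPM. Krt15 was 874 and 2779 CPM over the layer but 3014 and 2806 CPM in cluster 0, since control cluster 2 held little of it (517 CPM).

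Other keratins of the upper squamous layers were as high or higher with progesterone within the shared cluster. Krt13, the type I chain of wet squamous epithelium, was 2129.5 and 2854 CPM in suprabasal-like cells and 1374 and 2756 CPM in cluster 0, a ratio of 2.01 (1.86 to 2.17). Its usual partner Krt4 was 6.54 and 41.5 CPM in suprabasal-like cells. In cluster 0 Krt4 had 0 UMIs in the control and 38.1 CPM in the progesterone library, at least 6.11-fold higher against a floor of 3 UMIs in the control cells of the cluster. Krt4 stayed far below Krt13, with 303 UMIs against 20866 in the progesterone suprabasal-like cells. Krt10, the type I chain of cornifying layers, was 682 and 594 CPM in suprabasal-like cells and 295 and 578 CPM in cluster 0. Its partner Krt1 was 209 and 8.76 CPM in suprabasal-like cells, and in cluster 0 4.16 and 8.73 CPM, from 2 and 63 UMIs. The Krt1 UMIs of the control sat in few cells: 10 cells held 57.8% of the 853 UMIs and 1 cell 18.4%. In the progesterone library no cell had more than 2.

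The upper squamous clusters 5 and 16 and the unnamed clusters 7 and 11 were mostly control cells and are described without a comparison. Cluster 7 (451 control and 31 progesterone cells), with scores of 1.73 for superficial and 1.43 for luminal cells, stayed unnamed. Krt14 and Krt13 led its control keratin UMIs, at 21.4% and 21.2%. Cluster 11 (199 and 2 cells) also stayed unnamed, with scores of 1.90 for suprabasal, 1.22 for superficial and 1.08 for basal cells. Krt16 was among its leading genes, beside S100a8, S100a9, Hbb-bs and Hba-a2, which also led the neutrophil- or erythrocyte-like clusters. Cluster 5, upper squamous cells without a clear layer (897 control cells), carried Krt14 at 7148 CPM, Krt5 at 3052 CPM, Krt15 at 1955 CPM and Krt13 at 1474 CPM. Cluster 16, superficial-like (88 control cells), had Krt19 at 3968 CPM and Krt7 at 3052 CPM, above every other cluster and library with at least 50 cells, and Krt5 at 283 CPM. It also held Krt23, a type I chain, at 609 CPM, where no other such cluster was above 69.9 CPM, and Krt20, a type I chain of umbrella and gut epithelium, at 64.7 CPM. Its marker score was 3.50 for superficial and 1.97 for luminal cells. The 13 luminal markers summed to 10570 CPM in it, with 2 of them at 0, Agr2 among these, against 13519 CPM in control luminal-like cells, and their part in these keratin levels was not tested.

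Luminal-like cells differed between the libraries by more than 2-fold in Krt8, Krt7, Krt19 and Krt13 but not in Krt18. Krt18 was 2920.5 and 2409 CPM, a ratio of 0.825 (0.790 to 0.862). Its partner Krt8 was 3098 and 844 CPM, 3.67-fold lower (3.50 to 3.84). Krt7 was 1899.7 and 328 CPM, 5.78-fold lower (5.43 to 6.15), Krt19 2570.2 and 736 CPM, 3.49-fold lower (3.32 to 3.67), and Krt13 5014 and 1446 CPM, 3.47-fold lower (3.35 to 3.59). Within cluster 12, which both libraries filled (220 and 107 cells), Krt18 was 2935 and 2416 CPM and Krt8 3140.3 and 1491 CPM, 2.11-fold lower (1.95 to 2.28). There Krt7 (1936 and 1314 CPM), Krt19 (2624 and 1449.8 CPM) and Krt13 (5089 and 2686 CPM) were lower by less than 2-fold. The low Krt7 of the progesterone luminal-like cells lay in clusters 15 and 21, at 215 and 324 CPM. The luminal markers themselves differed within cluster 12: the 13 summed to 13400 CPM in the control and 11519 CPM in the progesterone cells, and Agr2, a mucous secretory protein, was 3054 and 398 CPM. Their part in the keratin differences was not tested.

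Control luminal-like cells also carried squamous keratins, which were lower with progesterone in cluster 12 as well. Krt6a was 1721 and 19.7 CPM there, 87.3-fold lower (48.6 to 175), and Krt14 2599.9 and 143 CPM, 18.1-fold lower (14.5 to 23.0). Krt5 was 2810.2 and 711 CPM, 3.95-fold lower (3.55 to 4.41), and Krt15 2648 and 829.7 CPM, 3.19-fold lower (2.88 to 3.54). In the control these levels of Krt5, Krt15 and Krt6a lay above the highest non-epithelial class (1801, 1225 and 749 CPM), and that of Krt14 lay within the range of these classes. With progesterone, the cluster 12 levels lay below the pooled non-epithelial cells, at 2512 (Krt14), 1205 (Krt5), 1001.5 (Krt15) and 190 CPM (Krt6a). These folds thus rest on progesterone levels that could not be told apart from free RNA. Krt6b was 426 CPM in the control cells of the cluster, and 1 UMI was counted in the progesterone cells. The proportions differed from those of the squamous cells: control luminal-like cells had 1992 Krt15 and 1957 Krt14 UMIs, where control basal-like cells had 13180 and 82474. Their 1302 Krt6a UMIs came with 36 of Krt16. The 9 basal squamous markers summed to 294 CPM in control and 188 CPM in progesterone cells of cluster 12, against 2086 and 1734 CPM in basal-like cells and 365 and 734 CPM in non-epithelial cells. Trp63, which defines basal cells, was 9.32 CPM in control cluster 12 and 179 CPM in control basal-like cells.

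Krt18, of simple epithelium, was higher with progesterone in squamous cells. It was 136 and 453 CPM in basal-like cells, 3.32-fold higher (3.04 to 3.64), and 42.5 and 815 CPM in suprabasal-like cells, 19.2-fold higher (16.2 to 22.8). Within cluster 0 it was 116 and 811 CPM, 6.96-fold higher (5.36 to 9.23), and within cluster 8 72.0 and 518 CPM, 7.20-fold higher (6.07 to 8.58). In the shared basal-like clusters the difference stayed below 2-fold, 401 and 585 CPM in cluster 1 and 220.3 and 372 CPM in cluster 6, ratios of 1.46 (1.29 to 1.66) and 1.69 (1.34 to 2.15). The lowest levels were those of control clusters 2 (30.2 CPM) and 3 (64.9 CPM). Krt8 was 58.5 and 64.0 CPM in basal-like cells and 44.0 and 181 CPM in suprabasal-like cells, and 91.5 and 179 CPM in cluster 0. In non-epithelial cells it was 37.9 and 60.6 CPM, with classes up to 201 and 69.5 CPM. In these squamous groups the control levels of Krt8 and the progesterone level of basal-like cells lay below the highest class. They could not be told apart from free RNA, although progesterone cluster 1 stood above it, at 84.4 CPM (51.6 CPM in cluster 6). With this limit, progesterone basal-like cells had 7.09 Krt18 UMIs for each Krt8 UMI and suprabasal-like cells 4.51. The value was 2.85 in progesterone and 0.943 in control luminal-like cells. In control squamous cells the value varied by cluster: it was 2.33 over basal-like and 0.966 over suprabasal-like cells, 1.27 in cluster 0 and 3 in cluster 6, but 5.91 in cluster 1 and 5.74 in cluster 5, so an excess of Krt18 over Krt8 was also found without progesterone.

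Luminal-like cells were 23.3% of the progesterone and 4.91% of the control cells, and the Krt18 of the pooled non-epithelial cells differed between the libraries too. In the non-epithelial cells Krt18 was 52.3 CPM in the control and 252 CPM in the progesterone library, with classes at 117 to 343 CPM in the latter. The progesterone levels in clusters 0, 1, 6 and 8 lay above the highest of these. Non-epithelial progesterone cells had 519 Krt18 and 125 Krt8 UMIs. Agr2 was 27.3 CPM in progesterone basal-like cells, 52.0 CPM in suprabasal-like cells and 66.4 CPM in non-epithelial cells, where luminal-like cells had 4200.5 CPM. Progesterone basal-like cells held 6136 Krt18 and 370 Agr2 UMIs, non-epithelial cells 519 and 137, and luminal-like cells 23776 and 41451. The 13 luminal markers summed to 692 and 1463 CPM in control and progesterone basal-like cells, 471 and 1893 CPM in suprabasal-like cells and 481 and 984 CPM in non-epithelial cells, with none at 0 in these progesterone groups. How far free RNA adds to the squamous Krt18 was not tested.

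**Figure D2:**
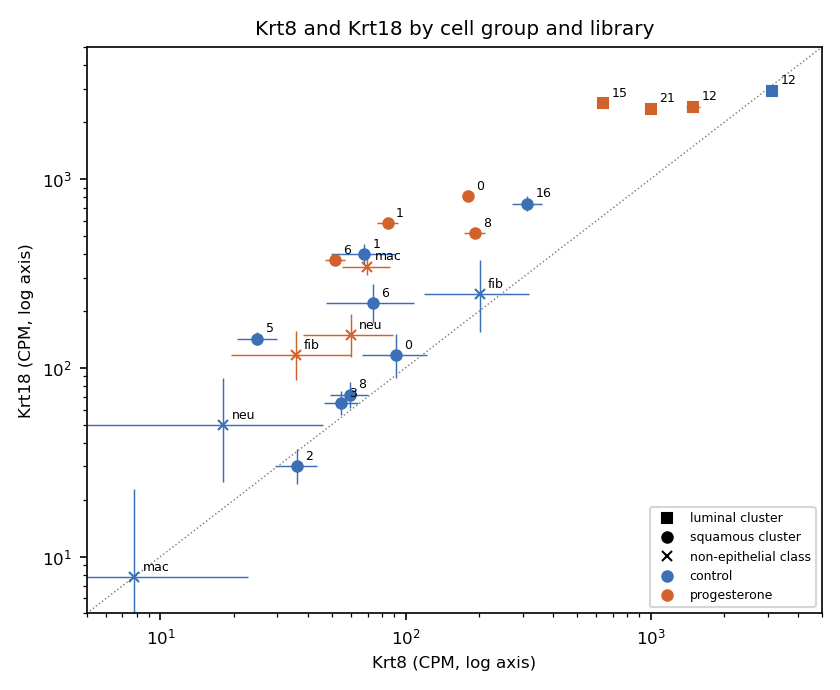
Krt8 (horizontal) against Krt18 (vertical), both in CPM on log axes, for each epithelial cluster (numbered) and for macrophage-, neutrophil- and fibroblast-like cells (mac, neu, fib) with at least 50 cells, coloured by library; bars are 95% Poisson intervals and the dotted line marks equal levels. Control cluster 12 lies close to the line (3140.3 CPM of Krt8, 2935 CPM of Krt18), and the progesterone squamous clusters 0, 1, 6 and 8 lie above it with Krt18 between 372 and 811 CPM.

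Pairs were also counted in single cells, each thinned to 2000 UMIs, with shallower cells left out (378 control and 190 progesterone basal-like cells, 68 and 27 suprabasal-like, 73 and 265 luminal-like). Krt5 and Krt14 were found together in 98.9% of control and 97.4% of progesterone basal-like cells (89.5% and 98.7% without thinning). The macrophage-like cells, which should lack both, had that pair in 17.7% and 58.9%, at median depths of 1430 and 1742 UMIs before thinning against 3318 and 4370 in basal-like cells. Krt8 and Krt18 were found together in 96.1% (91.6 to 98.5) of control and 73.4% (71.2 to 75.5) of progesterone luminal-like cells, and a further 24.4% of the latter had Krt18 without Krt8. Within cluster 12 the shares were 94.6% and 91.6%, and without thinning those of the layer were 86.2% and 86.0%. Krt7 with Krt19 was found in 78.3% of control and 26.2% of progesterone luminal-like cells, but in 77.2% and 78.9% within cluster 12.

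The pairs of the stress keratins were divided between the libraries. Krt6b with Krt16 was found in 73.2% (68.4 to 77.5) of control and 1.52% (0.873 to 2.46) of progesterone suprabasal-like cells. Within cluster 0 the shares were 16.1% (9.32 to 25.2) and 1.44% (0.810 to 2.37), and macrophage-like cells had the pair in 0 of 62 and 0 of 207 cells (intervals up to 5.78% and 1.77%). Krt14 with Krt18, a pair across lineages, was found in 14.9% of control and 52.8% of progesterone basal-like cells and in 5.73% and 64.4% of suprabasal-like cells, while macrophage-like cells had it in 0 of 62 control cells (interval up to 5.78%) and in 32.9% with progesterone. The pairs of the upper layers were rare at this depth. Krt1 with Krt10 was found in 6.51% of control and 0.285% of progesterone suprabasal-like cells, although Krt10 was found in 35.4% and 28.3%. Krt4 with Krt13 was found in 0.521% and 5.42%, although Krt13 was found in 70.6% and 76.5%.

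**Figure D3:**
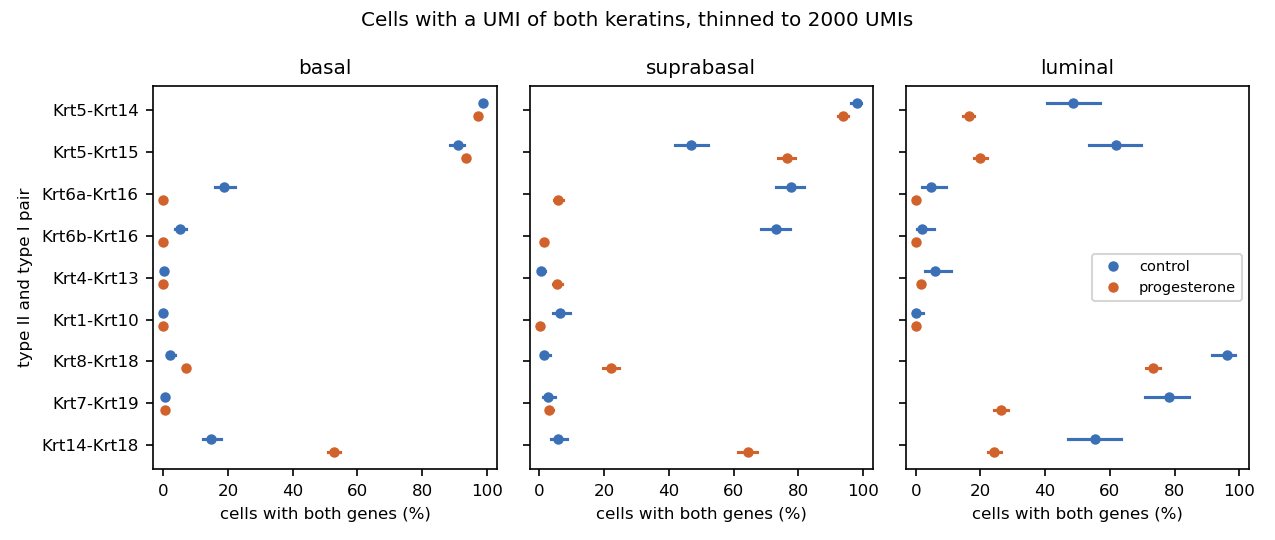
Share of cells with at least 1 UMI of both genes of a pair (horizontal, percent, with 95% exact binomial intervals) after thinning to 2000 UMIs, for 9 of the 15 preset pairs (rows), in basal-, suprabasal- and luminal-like cells (panels), by library (colours). In the suprabasal panel Krt6b with Krt16 stands at 73.2% in the control and 1.52% with progesterone, and Krt14 with Krt18 at 5.73% and 64.4%.

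Over the 16 combinations of epithelial cluster and library with at least 50 cells, the levels of several usual partners went together. This is a description only, since the points share libraries and their free RNA. Pearson's r of log2 (CPM + 10) was 0.93 for Krt6b and Krt16, 0.89 for Krt5 and Krt14 and 0.87 for Krt8 and Krt18, but 0.58 and 0.60 for Krt17 with Krt6a and Krt6b, 0.34 for Krt1 and Krt10 and −0.33 for the sparse Krt2 and Krt10. Across lineages it was −0.88 for Krt14 and Krt18 and −0.59 for Krt5 and Krt8. Type I UMIs outnumbered type II UMIs in each layer. The type II share was 23.0% in control and 23.0% in progesterone basal-like cells, 25.7% and 31.1% in suprabasal-like cells and 39.1% and 28.7% in luminal-like cells. Within the pair of Krt5 and Krt14 there were 6.82 Krt14 UMIs for each Krt5 UMI in control and 1.59 in progesterone suprabasal-like cells. That control value came mostly from cluster 2 (7.29). Within the shared clusters it was 3.21 and 1.59 in cluster 0, 2.53 and 2.10 in cluster 1 and 2.33 and 2.39 in cluster 6.

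Among the less abundant members, Krt12, known as the keratin of the corneal epithelium, had a higher level with progesterone in squamous cells. It was 8.14 and 28.5 CPM in basal-like cells, 3.50-fold higher (2.44 to 5.19), 32.1 and 97.3 CPM in suprabasal-like cells, 3.03-fold higher (2.47 to 3.75), and 14.7 and 91.4 CPM in cluster 8, 6.23-fold higher (4.25 to 9.41), against 2.61 and 19.9 CPM in non-epithelial cells. Over all basal-like cells the progesterone level was below that of the highest non-epithelial class, the macrophage-like cells (33.0 CPM). Measured against that class, it could not be told apart from free RNA. Macrophage-like cells held 37 of the 41 non-epithelial UMIs, and neutrophil- and fibroblast-like cells stood lower, at 4.97 and 5.09 CPM, from 2 UMIs each. Within the shared basal-like cluster 1, however, Krt12 was 7.36 and 53.5 CPM, from 5 and 277 UMIs, 7.27-fold higher (3.08 to 22.6). The progesterone level of cluster 1 lay above the macrophage-like cells, and that of cluster 6 lay below them. The progesterone levels of suprabasal-like cells and of cluster 8 also lay above the macrophage-like cells. Krt12 was also among the 10 leading genes of cluster 9, which stayed unnamed (142 and 795 cells), with 3 and 117 UMIs. Krt33b, a type I chain best known from hair, was 141 and 58.3 CPM in luminal-like cells, with 0 UMIs in the non-epithelial cells of both libraries. In cluster 12 it had 106 UMIs in the control and 0 in the progesterone library, at least 26.2-fold lower against a floor of 3 UMIs, while progesterone cluster 15 held it at 88.1 CPM. Of the control Krt33b UMIs, 10 cells held 55.1%. Krt78, a type II chain, was 212 and 15.1 CPM in luminal-like cells, 14.1-fold lower (11.2 to 17.7), and 210.3 and 5.38 CPM in cluster 12. Krt80, a type II chain, was 41.7 and 45.3 CPM in luminal-like cells, a ratio of 1.09 (0.759 to 1.61). Krt7 was also present in basal-like cells, at 327 and 294 CPM, against 75.8 and 118 CPM in non-epithelial cells.

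The 12 members with at least 20 but fewer than 500 UMIs ranged from 23 to 244. Krt20 had 194 UMIs in the control and 50 in the progesterone library, and Krt2, a type II chain of cornified epidermis, 6 and 37. Krt76, with 229 and 5 UMIs, and Krt9, with 36 and 0, were chosen for mention after their values were seen. The other 12 detected members had 1 to 18 UMIs. To see whether reads could be split between copies, words of 90 bases, the read length, were compared over the last 500 bases of transcripts: 3 members shared words with another gene, Krt16 with 4.38% of its words, and Krt6a, Krt6b, Krt14 and Krt17 shared none.

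Counted over the members, the balance of directions differed by layer. In basal-like cells 3 of the 19 members with at least 20 UMIs were more than 2-fold higher with progesterone (Krt18, Krt12 and Krt80) and 8 more than 2-fold lower, where 9.26% and 6.46% of all genes with at least 20 UMIs were past that fold. In suprabasal-like cells 7 of 24 were higher and 9 lower, beside 23.1% and 5.63% of all genes. In luminal-like cells 3 of 24 were higher and 15 lower, beside 13.1% and 7.06%. Of the higher members, Krt18 in basal-like cells (453 CPM with progesterone) lay above the highest non-epithelial class (343 CPM). Basal-like Krt80 (0.509 and 3.84 CPM) lay below the non-epithelial level (7.84 and 5.82 CPM). So did luminal-like Krt10 (6.51 and 17.1 CPM, against 23.5 and 29.1 CPM) and Krt12 (11.2 against 19.9 CPM with progesterone). Of the 41 UMIs behind that non-epithelial Krt12 level, macrophage-like cells held 37. Measured against these levels, Krt80, Krt10 and Krt12 there could not be told apart from free RNA. The higher counts of the suprabasal- and luminal-like cells were thus close to the share of all genes, and the lower counts above it in the 3 layers. The members' median log2 ratio was −0.54, −0.09 and −1.54, beside 0.01, 0.36 and 0.05 over all genes. Within cluster 1, 1 of 15 members was lower (all genes 7.28%) and 4 higher (5.50%), and within cluster 6, 4 of 14 were lower (11.6%) and 1 higher (7.44%). Within cluster 0, 3 of 20 were lower (7.02%) and 7 higher (10.5%), and within cluster 8, 6 of 18 were lower (5.75%) and 5 higher (8.75%). Within cluster 12, 11 of 18 were lower (8.92%) and 1, Krt23, higher (7.71%). Krt16 was among the lower members in each of these 5 clusters, but its control level stood above that of non-epithelial cells (157 CPM) in clusters 0 and 8 and below it in clusters 1, 6 and 12 (43.9 CPM in cluster 12), while the non-epithelial level itself was 7.27 CPM with progesterone.

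**Figure D4:**
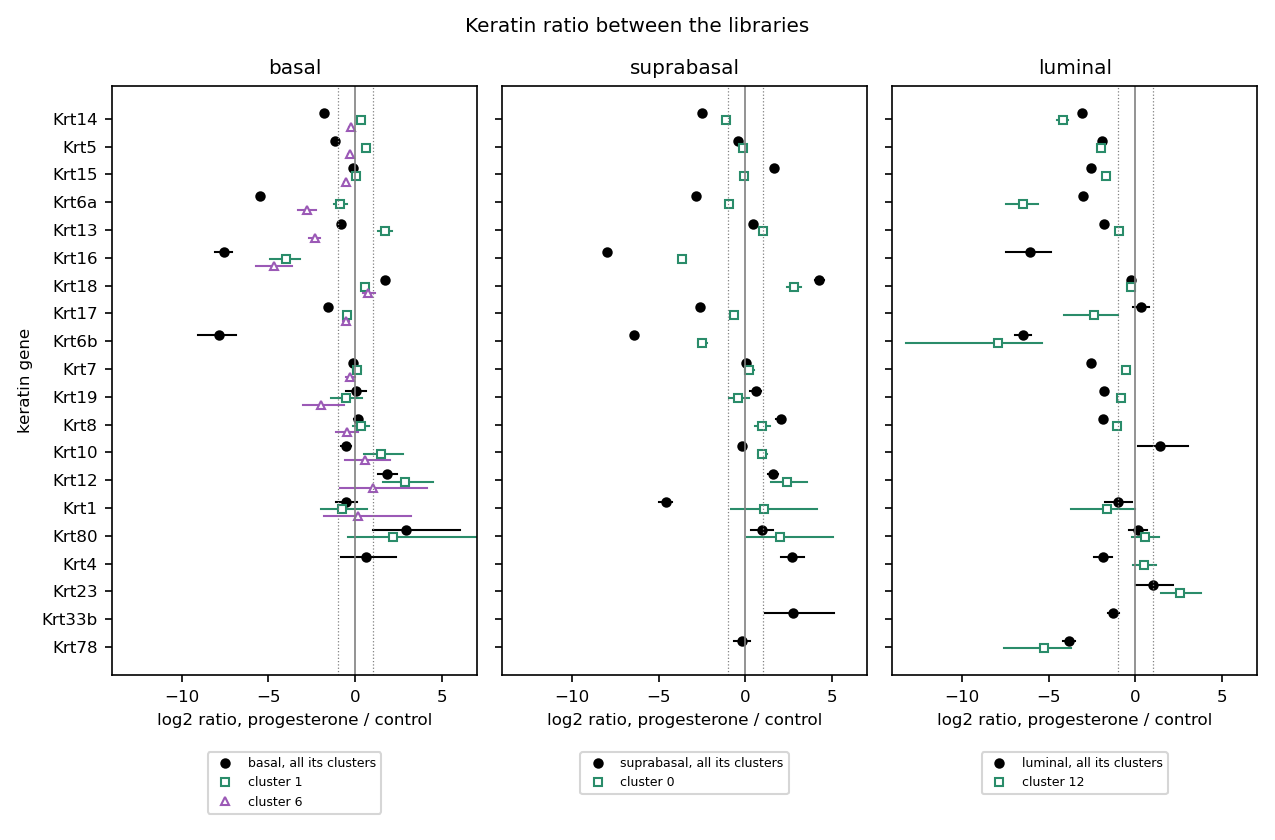
Log2 ratio of the progesterone over the control level (horizontal, with 95% exact intervals for counting error) for the 20 keratins with at least 500 UMIs (rows), in all clusters of a layer (filled circles) and within its shared clusters (open symbols); dotted lines mark 2-fold. Krt14 lies at −1.82 over the basal-like layer but at 0.33 and −0.28 within clusters 1 and 6, and Krt16 at −7.96 over the suprabasal-like layer and −3.64 within cluster 0. Ratios from fewer than 20 UMIs or with 0 UMIs in a library are not drawn, such as Krt33b in cluster 12 (106 and 0 UMIs) and Krt4 in cluster 0 (0 and 275 UMIs). Cluster 8, which is in no layer, is not drawn.

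Of 32 other genes of the keratin cytoskeleton (16 linkers and binding proteins, 10 regulators of keratin genes and 6 other intermediate filaments), 1 of the 27 measured in basal-like cells was more than 2-fold higher with progesterone and 8 more than 2-fold lower. The counts were 1 and 7 of 26 in suprabasal-like and 1 and 9 of 27 in luminal-like cells. Of all genes, 9.26% were higher and 6.46% lower past that fold in basal-like cells, 23.1% and 5.63% in suprabasal-like and 13.1% and 7.06% in luminal-like cells. The medians of the partner genes in the 3 layers were −0.54, −0.36 and −0.66 (log2), against 0.01, 0.36 and 0.05 over all genes. Within the shared clusters the counts higher and lower were 1 and 2 of 26 in cluster 0 (all genes 10.5% and 7.02%), 0 and 1 of 25 in cluster 1 (5.50% and 7.28%), 2 and 4 of 25 in cluster 6 (7.44% and 11.6%), 2 and 4 of 25 in cluster 8 (8.75% and 5.75%) and 0 and 8 of 20 in cluster 12 (7.71% and 8.92%). The lower counts of clusters 0 and 1 were thus close to or under the share of all genes. Sfn, the 14-3-3 sigma protein, which binds keratins, was 2271 and 363 CPM in basal-like cells, 6787 and 968 CPM in suprabasal-like cells and 1073 and 218 CPM in luminal-like cells. It was 2345 and 959 CPM within cluster 0 and 2399 and 506 CPM within cluster 8. Hspb1, a small heat shock protein, was 2088 and 673 CPM in basal-like and 5201 and 1218 CPM in suprabasal-like cells. At the other end, Tfap2c, an AP-2 factor, was 9.16 and 21.4 CPM in basal-like cells, and Tchh, a protein of the hair follicle, 4.83 and 8.64 CPM. Eppk1, a linker of keratin filaments, was 37.2 and 71.5 CPM in suprabasal-like cells, and Klf5, an epithelial transcription factor, 113 and 187 CPM. In luminal-like cells Evpl, a linker of the cornified envelope, was 354 and 56.7 CPM, Ehf, an epithelial ETS factor, 388 and 704 CPM, and Tfap2a, another AP-2 factor, 11.7 and 24.0 CPM.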

How the data were processed

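Single cells of 2 libraries (10x 3′ v3.1 chemistry) were measured. The authors deposited matrices of UMI counts per gene and barcode, made with Cell Ranger 3.0.2 and mm10 per the submitters' processing notes; no column was left unmapped (0). Barcodes under 200 genes or over 20% mitochondrial UMIs were removed, and 181 and 680 doublets (the highest Scrublet scores, 0.8% per 1000 cells) were left out. Clustering used scanpy 1.11.5 (2000 variable genes without keratins, keratin partners and mitochondrial genes, 30 components, 15 neighbours, Leiden resolution 1; 24 clusters). A cluster was named by its marker score (at least 0.75, a lead of 0.5, at least 3 markers detected); these limits were set after the clusters were seen. The members, lists and pairs were chosen with earlier results of these data known.

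Counts were summed by layer and library. Intervals are exact: Poisson for levels, Clopper-Pearson for shares and conditional binomial for ratios, at 95%. With 1 library per group, no p-value was computed: a member was called past 2-fold with at least 20 UMIs over both libraries. Intervals and calls were tried on simulated counts with counting error only. These held no free RNA, cluster make-up or variation between libraries, so they say nothing on those. Members with at least 500 UMIs were named, and of the partner genes the 2 highest and 2 lowest ratios per layer with at least 100 UMIs. Analysed cells held 20115550 and 38103960 UMIs. Alternatives covered cell filters, doublets, clustering, scaling, thresholds and thinning, and shared clusters alone, added after seeing the data. Genomic positions are those of GENCODE M21 (GRCm38), and promoter sequences are from RefSeq.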

Additional observations from a re-analysis of the deposited data

Results flagged for a closer look

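Of the named members, 3 had ratios of progesterone over control that pointed opposite ways in 2 layers, each with its counting interval wholly past 2-fold; with 1 library per group these differences between layers were not tested. Krt15 was 3.18 in suprabasal-like and 0.170 in luminal-like cells, but 0.931 within the shared suprabasal-like cluster 0. Krt8 was 4.11 in suprabasal-like and 0.273 in luminal-like cells, and 1.96 and 0.475 within the shared clusters 0 and 12. Krt4 was 6.34 in suprabasal-like and 0.270 in luminal-like cells, but 1.41 within the shared luminal-like cluster 12. Besides these, the ratios of Krt33b pointed opposite ways past 2-fold, but its interval in luminal-like cells reached inside 2-fold: 6.75 (2.16 to 34.0) in suprabasal-like cells, from 3 and 44 UMIs, and 0.414 (0.337 to 0.514) in luminal-like cells. Of the first 3, Krt8 alone kept opposite directions within the shared clusters. Its control level in cluster 0, 91.5 CPM from 44 UMIs, lay below the highest non-epithelial class of that library (201 CPM).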

How the results depend on the processing

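No paired analysis was possible because each group is 1 library. The ratio of the keratin share of UMIs (progesterone over control) was 0.379 in basal-like, 0.245 in suprabasal-like and 0.297 in luminal-like cells. In the shared clusters alone, chosen after seeing the data, it was 1.00, 0.684 and 0.427. Without doublet removal it was 1.05, 0.227 and 0.289, with the stricter cell filter (500 genes, 10% mitochondrial) 0.909, 0.221 and 0.273, and with each library clustered apart 0.911, 0.466 and 0.291. With keratins kept in the clustering it was 0.445, 0.325 and 0.287, with CPM over the reduced gene set 0.434, 0.284 and 0.325, and as a mean over cells 0.512, 0.266 and 0.336. At Leiden resolution 2 it was 0.870 (basal) and 0.279 (suprabasal). The lower basal keratin content thus depended on which clusters were called basal-like, and the lower suprabasal and luminal content held under these settings.

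Log2 ratios that changed sign were, in the shared clusters, 0.76 for Krt1 and −0.10 for Krt15 (suprabasal), 0.0626 for Krt14 and 0.18 for Krt5 (basal) and 0.50 for Krt4 (luminal). Without doublet removal they were 0.15 for Krt14 and 0.22 for Krt5 (basal) and −0.32 for Krt10 (luminal), and with libraries clustered apart 0.0176 for Krt5 (basal) and −1.61 for Krt10 (luminal). Of 37 member and layer ratios past 2-fold, 29 to 37 stayed past 2-fold in the same direction under the 7 planned settings, and 20 of 35 in the shared clusters. The reduced gene set moved the median log2 ratio of all genes by 0.195, 0.209 and 0.132 in the 3 layers.

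The count of basal members past 2-fold lower was 4 in the shared clusters, 4 without doublet removal, 3 at resolution 2, 5 with libraries apart and 18 with no filter on UMIs, and the higher count 1 without doublet removal and 1 with libraries apart. The suprabasal lower count was 3 in the shared cluster. The luminal higher count was 1 in the shared cluster and 1 with intervals wholly past 2-fold, and the lower count 27 with no filter. The counts with no filter take in members with very few UMIs. For the single shared suprabasal- and luminal-like clusters the share of all genes is given above. Under the other settings that share was not computed, so these counts cannot be set against it.

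The type II share (percentage points, progesterone minus control) was 1.42 (basal), 4.37 (suprabasal) and −6.43 (luminal) in the shared clusters. With the stricter filter it was 0.631, 6.49 and −11.7 in that order, without doublet removal 0.746 (basal) and −9.63 (luminal), at resolution 2 1.26 and 6.69 and with libraries apart 1.15 and 6.22 (basal, suprabasal), and with keratins kept 6.56 (suprabasal).

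The share of cells with both genes, also in percentage points, was for basal Krt5 and Krt14 1.44 in the shared clusters, 1.16 without doublet removal, 0.815 at resolution 2, 0.0154 with libraries apart, −0.110 at 4000 UMIs and −6.32 with 2 UMIs of each gene. For suprabasal Krt6b and Krt16 it was −14.7 in the shared cluster, −28.6 with libraries apart, −84.0 with the stricter filter, and −65.1 and −80.4 at 1000 and 4000 UMIs. For luminal Krt8 and Krt18 it was −3.05 in the shared cluster, −17.2 with the stricter filter, −7.82 at 4000 UMIs and −34.8 with 2 UMIs of each gene.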
